A study of Mus musculus with 10 samples.

Results

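In Down syndrome mouse models, the genes of an extra chromosome segment are present in 3 copies in place of 2. Here 9 genes of such a segment whose products act on chromatin, or are named for such a role, were followed in the hippocampus: Brwd1, Hmgn1, Morc3, Chaf1b, Setd4, N6amt1, Mis18a, Hlcs and Zbtb21. They were picked by symbol, and all lie on mouse chromosome 16 (Mmu16) in the part that the Ts65Dn mouse carries in 3 copies. They are 9 of the 127 measured genes of that part, of 158 measured genes in 3 copies on both chromosomes of origin and of 19936 genes with a single symbol on the array. Each of the 9 was read by 1 transcript cluster, which is a set of probes whose signals are summarised to 1 value.

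The tested animals were 5 male Ts65Dn mice, which bear a small additional chromosome with 1 more copy of part of Mmu16 and of a part of chromosome 17 (Mmu17) that has no counterpart on human chromosome 21. Their 5 male control littermates had 2 copies of both parts. All 10 mice were 16 weeks old and of an F1 hybrid B6C3B background. Hippocampal RNA of each mouse was hybridized to 1 Affymetrix Mouse Gene 1.0 ST array. The comparison asked how the RNA signal of each gene followed its copy number, with 1.5 as the ratio of 3 to 2 copies. Values are log2 signals, so that a difference of 0.58 stands for a fold of 1.5. A signal depends on the probes as well as on the RNA, and so it was compared between mice for the same gene. In pieces of tissue, a lower share of cells that hold an RNA and less of it per cell cannot be told apart.

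DNA in the nucleus is wound around histones, and chromatin regulators place, bind, modify or move these histones and thereby set which genes can be read. Readers such as Brwd1 and Morc3 bind modified histone tails, Hmgn1 binds the nucleosome itself, Chaf1b belongs to a chaperone that loads new histones behind the replication fork, and Mis18a helps to mark the centromere. In the adult hippocampus most cells are neurons and glia that have left the cell cycle, so that proteins of replication and of cell division are mainly needed in the few cells that still divide.

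Morc3, Brwd1 and Hlcs rose in Ts65Dn hippocampi, which makes 3 of the 9 genes called higher and 0 called lower at an adjusted p under 0.05 (limma, two-sided, adjusted over 23410 transcript clusters). Over all transcript clusters 0.312% were called higher and 0.316% in either direction, and among the other 118 Mmu16 genes in 3 copies 33.1% were called higher. At an unadjusted p under 0.05, 6 of the 9 were higher and 0 lower, where 1.73% of all transcript clusters were higher. In 5 of the 9 every Ts65Dn mouse lay above every control, against 0.577% of all transcript clusters and 39.8% of the other Mmu16 genes. The median log2 fold change of the 9 genes was 0.30 (1.23-fold), beside 0.19 (1.14-fold) for the other Mmu16 genes and -0.00 for all transcript clusters. Of the other Mmu16 genes 47 of 118 fell in the dimmest part by signal, against 1 of the 9, and medians within parts are given with the signal. The mean log2 signal of the 9 genes per mouse was 7.81, 7.80, 7.83, 7.82 and 7.80 in Ts65Dn mice, against 7.51, 7.53, 7.49, 7.57 and 7.55 in controls.

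**Figure D1:**
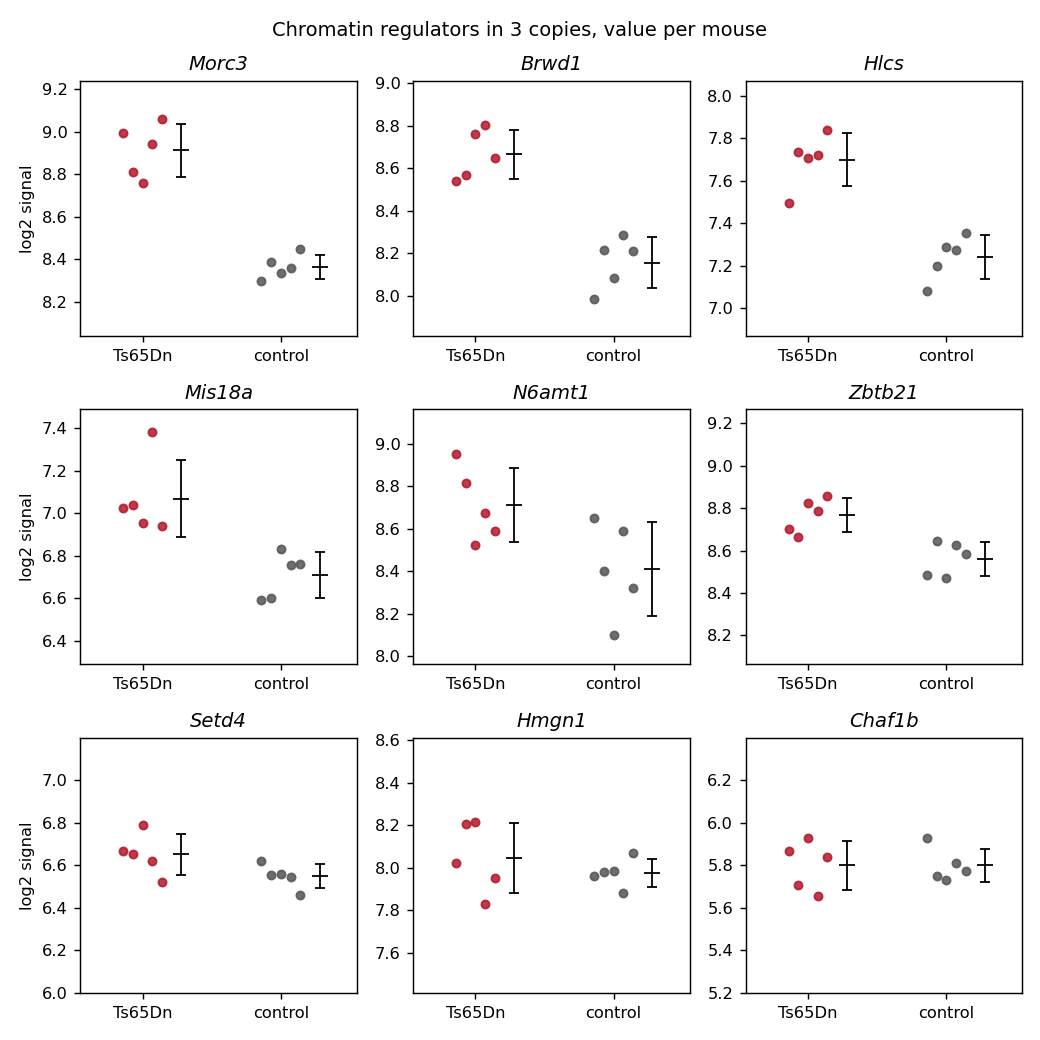
Log2 signal of the 9 chromatin regulators in each mouse, with 1 panel per gene, 5 Ts65Dn mice on the left and 5 controls on the right, and bars for the mean and SD. Every panel spans the same height on its axis, and the genotypes do not overlap for Morc3, Brwd1, Hlcs, Mis18a and Zbtb21.

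Morc3 and Chaf1b are neighbours on Mmu16, with 7.82 kb between them. Morc3, an ATPase with a zinc finger that reads methylated histone H3 and a component of PML nuclear bodies, lies at chr16:93832121-93876077 (GRCm38, here and below). Its log2 signal was 8.99, 8.81, 8.76, 8.94 and 9.06 in the 5 Ts65Dn mice, against 8.30, 8.39, 8.34, 8.36 and 8.45 in the 5 controls. The lowest Ts65Dn mouse was well above the highest control. Morc3 rose by 0.55 ± 0.06 (log2, SE), or 1.46-fold with a 95% interval of 1.34 to 1.60 (limma adjusted p = 0.00184, n = 5 per group). Chaf1b, at chr16:93883900-93906115, encodes a subunit of CAF-1, the chaperone that hands histones H3 and H4 to newly copied DNA. Its log2 signal was 5.87, 5.71, 5.93, 5.65 and 5.84 in Ts65Dn mice, against 5.93, 5.75, 5.73, 5.81 and 5.77 in controls. The 2 sets of mice covered nearly the same range. The fold of Chaf1b was 1.00 (0.914 to 1.09), and its adjusted p was 1.00 in the limma fit.

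Brwd1 and Hmgn1 form the other close pair, 38.9 kb apart. Brwd1, at chr16:95992089-96082703, encodes a protein with bromodomains, which bind acetylated histones, and with WD repeats. It had log2 signals of 8.54, 8.57, 8.76, 8.81 and 8.65 in Ts65Dn mice, against 7.98, 8.22, 8.08, 8.28 and 8.21 in controls. The groups did not overlap, and Brwd1 was 1.42-fold higher (1.28 to 1.58; 0.51 ± 0.07 log2, SE; limma adjusted p = 0.00714, n = 5 per group). Hmgn1, at chr16:96121588-96127725, encodes a small protein that binds nucleosomes and loosens their packing by linker histone. Its log2 signals were 8.02, 8.21, 8.21, 7.83 and 7.95 in Ts65Dn mice, against 7.96, 7.98, 7.99, 7.88 and 8.07 in controls. Ts65Dn mice held both the highest and the lowest value, with an SD of 0.165 beside 0.0675 in controls. The fold of Hmgn1 was 1.05 (0.940 to 1.17; limma adjusted p = 1.00), an interval that holds 1 and lies below 1.5. Processed copies of Hmgn1 are known in mammalian genomes, and whether the probes of its transcript cluster lie at the gene was not checked.

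To test these contrasts directly, the difference of log2 signals between 2 neighbouring genes was taken within each mouse, so that a shift shared equally by both genes on an array drops out. The 8 consecutive pairs along Mmu16 were put to an exact permutation test over mice (two-sided, smallest possible p 0.00794, adjusted over the 8 pairs), after the values of single genes had been seen. Morc3 minus Chaf1b was 2.83 to 3.29 in Ts65Dn mice and 2.37 to 2.67 in controls, with a mean difference of 0.55 (exact p = 0.00794, adjusted p = 0.0317). Hlcs minus Chaf1b differed by 0.46 (exact p = 0.00794, adjusted p = 0.0317) and Morc3 minus Setd4 by 0.44 (exact p = 0.0159, adjusted p = 0.0317). Brwd1 minus Hmgn1 was 0.36 to 0.98 in Ts65Dn mice and 0.02 to 0.40 in controls, a difference of 0.44 (exact p = 0.0159, adjusted p = 0.0317). The measured change of the 2 genes thus differed in these 4 pairs. Morc3 and Chaf1b are each in 2 of them, so the 4 results are not independent. In the pairs with Chaf1b, the log2 signal of Chaf1b averaged 5.80, a level at which ratios can be understated. In Morc3 minus Setd4, the log2 signal of Setd4 averaged 6.60. The part of signal level in these differences was not tested. In Brwd1 minus Hmgn1, whether the Hmgn1 probes lie at the gene was not checked. With any 1 mouse left out, the exact p of each of the 4 pairs was at most 0.0238. Mis18a minus Setd4 differed by 0.26 (exact p = 0.0476, adjusted p = 0.0762), Zbtb21 minus Hmgn1 by 0.13 (adjusted p = 0.317 in the exact test), Mis18a minus N6amt1 by 0.06 and Brwd1 minus Hlcs by 0.05 (adjusted p = 0.722 and 0.580 in the exact test). These last 4 did not pass.

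**Figure D2:**
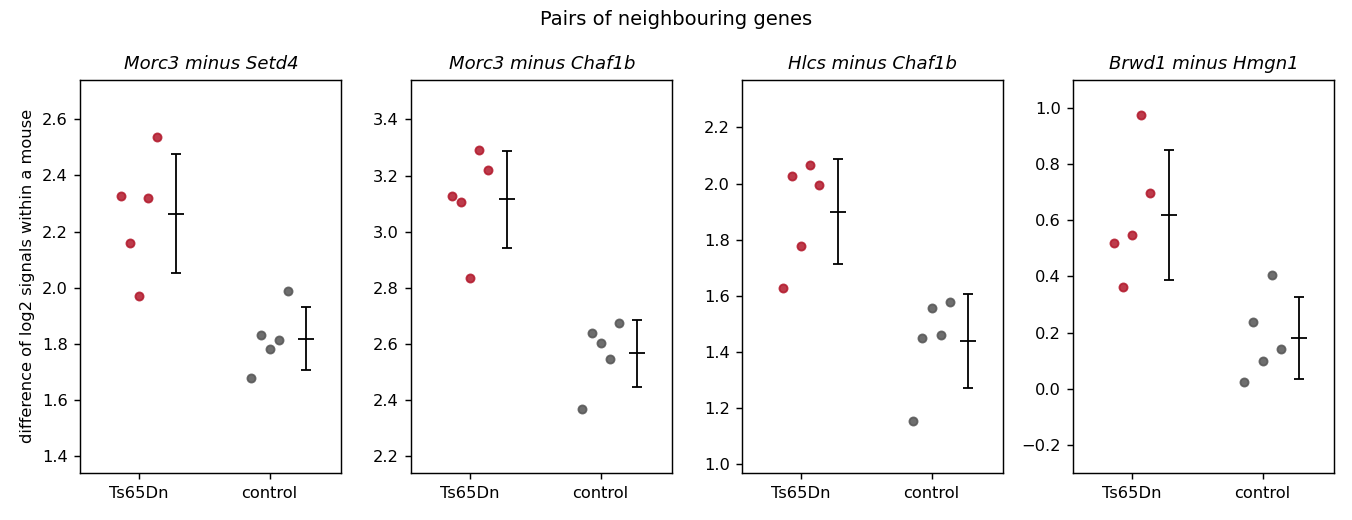
Difference of the log2 signals of 2 neighbouring genes within a mouse (Ts65Dn left, control right, 5 mice each, bars for mean and SD) in the 4 pairs that passed the exact permutation test. Morc3 minus Chaf1b lies at 2.83 to 3.29 in Ts65Dn mice and 2.37 to 2.67 in controls, with no overlap.

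Within each of the 2 close pairs the genes share their place and copy number, while the measured folds differed. The limits are those given for the dim signal of Chaf1b and the unchecked probes of Hmgn1. The sequences in front of the transcript starts of these genes are therefore shown. Each is the run of 250 bases before the start in the RefSeq annotation of GRCm38.p6, written 5′ to 3′ on the strand of the gene, and capitals mark the motifs searched on both strands. Morc3 is read from the plus strand (chr16:93831871-93832120), as is Chaf1b (chr16:93883651-93883900). Brwd1 (chr16:96082429-96082678) and Hmgn1 (chr16:96127726-96127975) are read from the minus strand, and the start used for Brwd1 lies just inside the gene span given above.
Morc3: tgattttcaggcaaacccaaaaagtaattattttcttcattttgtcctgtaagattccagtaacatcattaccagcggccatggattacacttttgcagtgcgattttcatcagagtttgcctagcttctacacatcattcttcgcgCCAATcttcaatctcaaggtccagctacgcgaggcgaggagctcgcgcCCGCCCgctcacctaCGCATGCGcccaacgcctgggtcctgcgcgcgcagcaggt
Chaf1b: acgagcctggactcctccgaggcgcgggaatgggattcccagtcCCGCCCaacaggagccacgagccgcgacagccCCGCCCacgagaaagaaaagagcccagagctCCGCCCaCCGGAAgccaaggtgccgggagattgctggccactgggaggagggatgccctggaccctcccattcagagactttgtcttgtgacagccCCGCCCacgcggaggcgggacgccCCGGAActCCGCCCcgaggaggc
Brwd1: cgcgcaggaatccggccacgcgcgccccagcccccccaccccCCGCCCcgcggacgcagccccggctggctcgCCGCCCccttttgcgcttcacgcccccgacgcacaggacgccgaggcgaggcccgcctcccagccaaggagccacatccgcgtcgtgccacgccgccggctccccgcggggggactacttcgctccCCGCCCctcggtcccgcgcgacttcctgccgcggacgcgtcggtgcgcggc
Hmgn1: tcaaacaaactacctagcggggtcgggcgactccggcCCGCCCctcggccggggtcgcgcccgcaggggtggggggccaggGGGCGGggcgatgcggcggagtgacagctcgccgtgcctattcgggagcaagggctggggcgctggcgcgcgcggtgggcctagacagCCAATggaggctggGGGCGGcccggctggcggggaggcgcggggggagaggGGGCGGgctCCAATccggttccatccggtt
The Morc3 window holds 1 CCAAT box (letters CCAAT), 1 GC box (letters GGGCGG, in capitals here as its reverse complement) and an NRF1 core (letters GCATGCG) that overlaps its own match on the opposite strand. Chaf1b has 5 GC boxes and 2 ETS cores (letters CCGGAA), Brwd1 has 3 GC boxes, and Hmgn1 has 4 GC boxes and 2 CCAAT boxes.

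Over the 10 RefSeq windows of the 9 genes (Hlcs has 2 starts), 8 held a GC box, against 32.7% of all 32851 windows of this length in the mouse annotation. A CCAAT box was in 5 of 10 (33.8% of all), an ETS core in 3 (12.0%), an NRF1 core in 2, those of Morc3 and Mis18a (3.02%), and an E-box, letters CACGTG, in that of Zbtb21 (6.02%). A TATA box with the letters TATAAA (12.4% of all) and a CRE core with the letters TGACGT (6.47% of all) were in 0 of 10. The ratio of observed to expected CpG was over 0.6 in 9 of 10 windows, against 34.0% of all, with a median of 0.914 for the 9 genes and 0.373 for all windows. It was lowest for N6amt1 (0.484) and highest for Brwd1 (1.13). The letters of a GC box include CG, so the GC box share and the CpG ratio are not independent. Neither was counted for the other Mmu16 genes. The motifs were chosen with the windows at hand, and the genes past the threshold had no motif in common that the others lacked.

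Setd4 and N6amt1 encode methyltransferases that act on proteins. Setd4, at chr16:93583457-93604791, is a SET-domain lysine methyltransferase. Its log2 signal was 6.67, 6.65, 6.79, 6.62 and 6.52 in Ts65Dn mice, against 6.62, 6.56, 6.56, 6.54 and 6.46 in controls. The ranges overlapped, and the fold was 1.07 (0.995 to 1.16; limma adjusted p = 1.00), below 1.5. N6amt1, at chr16:87354185-87368649, works with Trmt112 and methylates the translation termination factor eRF1 and a lysine of histone H4. Its log2 signal was 8.95, 8.82, 8.52, 8.67 and 8.59 in Ts65Dn mice, against 8.65, 8.40, 8.10, 8.59 and 8.32 in controls. The ranges overlapped, with an SD of 0.173 in Ts65Dn mice and of 0.221 in controls, the highest control SD of the 9 genes. Its fold was 1.23 (1.04 to 1.45), with an unadjusted p of 0.0188 and an adjusted p of 1.00 in the limma fit.

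Mis18a, at chr16:90719312-90727371, encodes a subunit of the complex that prepares centromeres for the histone variant CENP-A. Its log2 signal was 7.02, 7.04, 6.95, 7.38 and 6.94 in Ts65Dn mice, against 6.59, 6.60, 6.83, 6.76 and 6.76 in controls. All Ts65Dn mice were above all controls, replicate 4 by the widest margin. The fold was 1.28 (1.13 to 1.46) and did not pass (limma adjusted p = 0.254, n = 5 per group). Without replicate 4 of the Ts65Dn mice the fold was 1.21 (limma adjusted p = 0.150).

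Hlcs, at chr16:94129306-94315239, encodes the biotin ligase that activates the carboxylases of mitochondria and cytosol and is also found in the nucleus. Its log2 signal was 7.50, 7.74, 7.71, 7.72 and 7.84 in Ts65Dn mice, against 7.08, 7.20, 7.29, 7.27 and 7.35 in controls. The groups did not overlap, and Hlcs was 1.38-fold higher (1.24 to 1.52; 0.46 ± 0.07 log2, SE; limma adjusted p = 0.0124, n = 5 per group). Zbtb21, at chr16:97945795-97962627, encodes a transcriptional repressor with a BTB domain and zinc fingers and is the last gene of the Mmu16 part considered here. It had log2 signals of 8.70, 8.66, 8.82, 8.78 and 8.85 in Ts65Dn mice, against 8.49, 8.64, 8.47, 8.62 and 8.59 in controls. The lowest Ts65Dn mouse lay just above the highest control. Its fold was 1.15 (1.07 to 1.24), with an unadjusted p of 0.00197 and an adjusted p of 0.369 in the limma fit.

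Against the copy ratio, the 95% intervals of 3 genes held 1.5 and those of 6 lay below it. The interval of Morc3, Brwd1 and Hlcs held 1.5 and not 1 (adjusted p of the limma test against 1.5 was 0.565, 0.322 and 0.104 in that order, adjusted over 158 genes in 3 copies). The interval of Mis18a, N6amt1 and Zbtb21 lay between 1 and 1.5 (adjusted p against 1.5 of 0.0268, 0.0317 and 2.39e-05 by limma). The interval of Setd4, Hmgn1 and Chaf1b held 1 and lay below 1.5 (adjusted p against 1.5 of 2.57e-06, 3.94e-05 and 1.72e-06 by limma). Among the other 118 Mmu16 genes 77.1% were below 1.5 by the same test, beside these 6 of 9. For N6amt1 the difference from 1.5 was lost when any of 6 single mice was left out (Ts65Dn replicates 3, 4 and 5, control replicates 1, 2 and 4, adjusted p up to 0.0789), and for Mis18a when any of 7 was (Ts65Dn replicates 1, 2, 3 and 5, control replicates 3, 4 and 5, up to 0.0672). Hlcs lay below 1.5 without Ts65Dn replicate 5 (adjusted p against 1.5 of 0.0478, limma) and without control replicate 1 (0.0364). The differences of Setd4, Hmgn1, Chaf1b and Zbtb21 held with each mouse left out. In the order of fold, each gene's interval overlapped that of the next gene, whereas the interval of Morc3 lay wholly above those of Zbtb21, Setd4, Hmgn1 and Chaf1b.

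**Figure D3:**
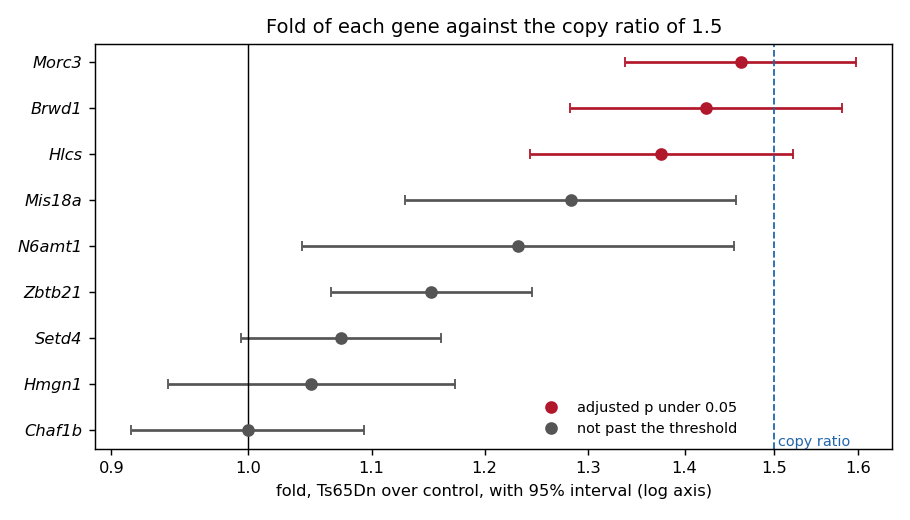
Fold of each gene, Ts65Dn over control, with its 95% interval on a log axis (limma, 5 mice per genotype); red marks an adjusted p under 0.05 and the dashed line the copy ratio of 1.5. The intervals of Morc3, Brwd1 and Hlcs reach 1.5, and those of Setd4, Hmgn1 and Chaf1b hold 1.

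RMA, which made these summaries, can understate the ratio of a dim gene where background adds to its signal in both groups. Folds were therefore set beside signal, and the part of background in them was not tested. The 158 genes in 3 copies were divided into 3 parts of nearly equal size by mean log2 signal. Of the other Mmu16 genes, the brightest part (8.64 to 12.96) had 31 of 39 called higher and a median fold of 1.32, the middle part (5.98 to 8.58) 7 of 32 and 1.25, and the dimmest part (4.20 to 5.94) 1 of 47 and 0.995. Chaf1b, with a mean of 5.80, was the only 1 of the 9 genes in the dimmest part, where 25 of 47 other genes had a lower fold. All 47 were below 1.5 by the test, and the part of dim signal in the fold of Chaf1b was not tested. Morc3 (8.64) and Zbtb21 (8.66) were both in the brightest part and next to each other in signal. There 37 of 39 other genes had a lower fold than Morc3, and 2 of 39 a lower fold than Zbtb21. The median log2 fold change in the brightest part was 0.38 for these 2 genes and 0.40 for the other Mmu16 genes, and in the middle part 0.33 for 6 of the 9 genes and 0.32 for the others. In the middle part, 29 of 32 others had a lower fold than Brwd1 (8.41), 28 than Hlcs (7.47), 18 than Mis18a (6.89), 15 than N6amt1 (8.56), 9 than Hmgn1 (8.01) and 9 than Setd4 (6.60).

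**Figure D4:**
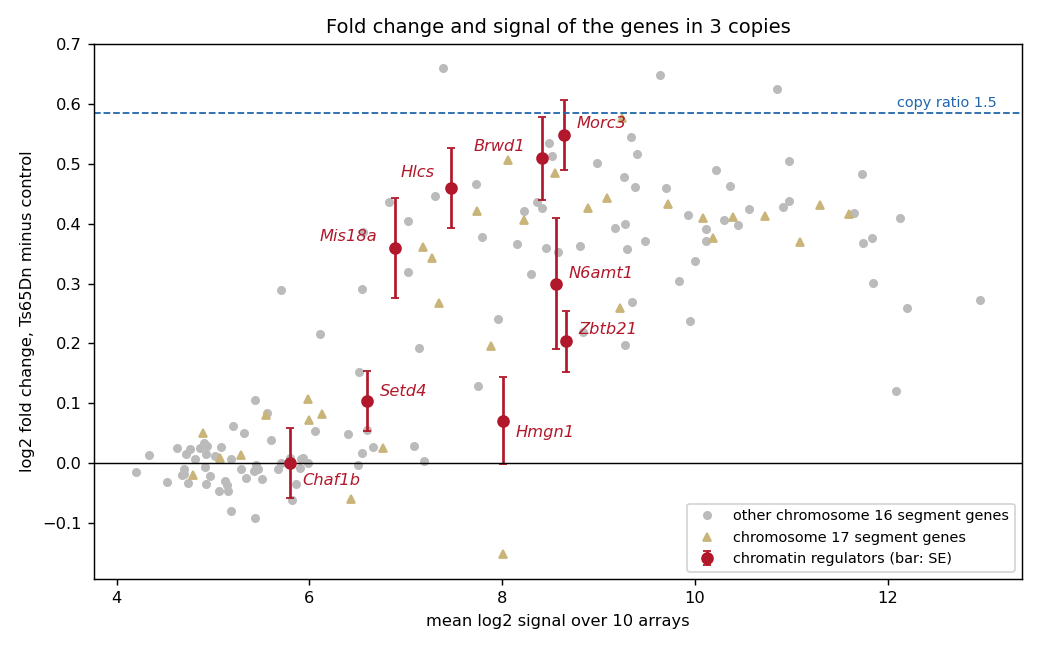
Change of 158 genes in 3 copies (vertical axis, log2, Ts65Dn minus control) by their mean log2 signal in all 10 mice (horizontal axis); red points are the 9 chromatin regulators with their SE, grey circles the other Mmu16 genes and sand triangles the Mmu17 genes. Most genes below a signal of 6 lie near 0, Chaf1b among them, with Adamts5 apart at 0.29, and the other 8 regulators spread between Hmgn1 at 0.07 and Morc3 at 0.55.

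The arrays were alike in scale, with median log2 signals of 7.38 to 7.41, and none held values identical to another. Of the hippocampal neuron genes, 11 of 11 had a mean above 8, with a list mean of 10.98 to 11.18 in Ts65Dn mice and 11.07 to 11.15 in controls. Of the genes of neighbouring thalamus and cortex, 6 of 7 also did, with a list mean of 8.15 to 8.57 in Ts65Dn mice and 8.33 to 8.66 in controls. A mean above 8 thus does not set hippocampus apart from neighbouring tissue. Over 69 measured marker genes in 8 lists of cell types and neighbouring tissue, limma called 0, while 2 had an unadjusted p under 0.05, both of them hippocampal neuron genes with a lower mean in Ts65Dn mice. For Wfs1, picked out after its values were seen, the groups did not overlap (10.34 to 10.73 in Ts65Dn mice and 10.84 to 10.97 in controls). The share of all transcript clusters that lay below controls in this way was not counted. The median log2 fold change of the 11 hippocampal neuron genes was -0.006. A rank method like that of the study, described at the end, put 2 of the 69 higher and 5 lower. It called 2.89% of all transcript clusters higher and 5.36% in either direction. Choroid plexus genes varied between mice of both genotypes (list mean 6.72 to 9.38 in Ts65Dn mice and 6.78 to 9.17 in controls), and their part in the values was not tested.

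The genes whose profile over the 10 arrays was most like the mean profile of the 9 were Atp5j, a subunit of ATP synthase (Pearson r 0.981), the phosphoinositide phosphatase Synj2 (0.980), Tulp4 (0.975), the phosphatase Synj1 (0.975) and the adhesion molecule Dscam (0.970). These 10 points fall into 2 genotypes, and of the 20 most similar genes among 19927, all 20 were themselves in 3 copies.

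Partners of the 9 genes were then examined in 12 lists of families and complexes, with 179 of 188 listed genes measured. Of these, 1 was called higher and 0 lower (limma), beside 0.316% of all transcript clusters called in either direction. It was Arid1b, a subunit of the SWI/SNF remodeller, which lies on the Mmu17 part and is in 3 copies too. Arid1b had log2 signals of 11.25, 11.17, 11.37, 11.33 and 11.25 in Ts65Dn mice, against 10.93, 10.89, 10.89, 11.00 and 10.83 in controls. The groups did not overlap, and the fold was 1.29 (0.37 ± 0.05 log2, SE; limma adjusted p = 0.00438, n = 5 per group). Of the 178 partners in 2 copies limma called 0. An unadjusted p under 0.05 was reached by 2 that were higher and 3 that were lower. By the rank method 2 of these 178 were higher and 6 lower, where it called 5.36% of all transcript clusters in either direction. Their log2 fold changes ran from -0.25 to 0.18, with a median of -0.01. Over all 179 partners 3.35% had an unadjusted p under 0.05, against 3.16% of all transcript clusters.

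Genes of the families of the 9 regulators in the lists of this paragraph had log2 fold changes from -0.13 ± 0.06 for Kmt5c to 0.14 ± 0.08 for Tonsl (SE). In the HMGN family, 0 of 3 were called, and the log2 fold change was -0.06 ± 0.06 for Hmgn2 and -0.10 ± 0.08 for Hmgn5 (SE). Of the closest relatives of Brwd1 0 of 2 were called, with 0.08 ± 0.09 for Brwd3 and -0.06 ± 0.07 for Phip. Among 10 measured genes of the MORC family and PML bodies, 0 were called, with 0.11 ± 0.07 for Morc2b and -0.06 ± 0.05 for Atrx, a remodeller found in these bodies. Of 13 chaperones of histones H3 and H4, 0 were called, and Hira, which loads histone outside replication, had -0.07 ± 0.03. All Ts65Dn mice lay just below all controls for Hira (limma unadjusted p = 0.0511). This separation was picked out from all the measured partner genes after their values were seen. How often transcript clusters as a whole lay below controls in this way was not counted, so nothing is concluded from it. Chaf1a, the large subunit of CAF-1, had 0.02 ± 0.06 and was added to the named genes after its values were seen. Of 30 SET-domain methyltransferases 0 were called, with -0.10 ± 0.05 for Setd5. Of 8 genes around Trmt112 0 were called, with 0.12 ± 0.10 for Trmt11 and 0.06 ± 0.06 for Etf1, which encodes the eRF1 substrate of N6amt1. Of 12 genes for CENP-A loading 0 were called, with 0.07 ± 0.03 for Cenpk, and of 40 genes with a Zbtb symbol, which include the neighbouring gene Zbtb8os, 0 were called, with 0.09 ± 0.04 for Zbtb5.

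The list of carboxylases that Hlcs loads with biotin, together with the biotinidase gene Btd, had 0 of 8 genes called. Mccc2, which forms a leucine-degrading carboxylase with the biotin-bearing Mccc1, had a mean log2 signal of 8.24 ± 0.0848 in Ts65Dn mice and 8.47 ± 0.144 in controls (SD), a log2 fold change of -0.23 ± 0.07 (SE) with an unadjusted p of 0.00682 and an adjusted p of 0.836 by limma. Mccc1 had -0.16 ± 0.10. Among 10 genes for methylated DNA, the dioxygenases Tet1 and Tet2 had fold changes of opposite sign, 0.18 ± 0.07 for Tet1 and -0.22 ± 0.08 for Tet2 (limma unadjusted p 0.0269 and 0.0141, adjusted p 1.00 for both). Smarcd3, a SWI/SNF subunit of neurons and muscle, had -0.15 ± 0.05 (adjusted p = 0.937 by limma). Of 23 Polycomb genes 0 were called, with -0.25 ± 0.13 for Cbx7 and -0.11 ± 0.05 for Cbx2.

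**Figure D5:**
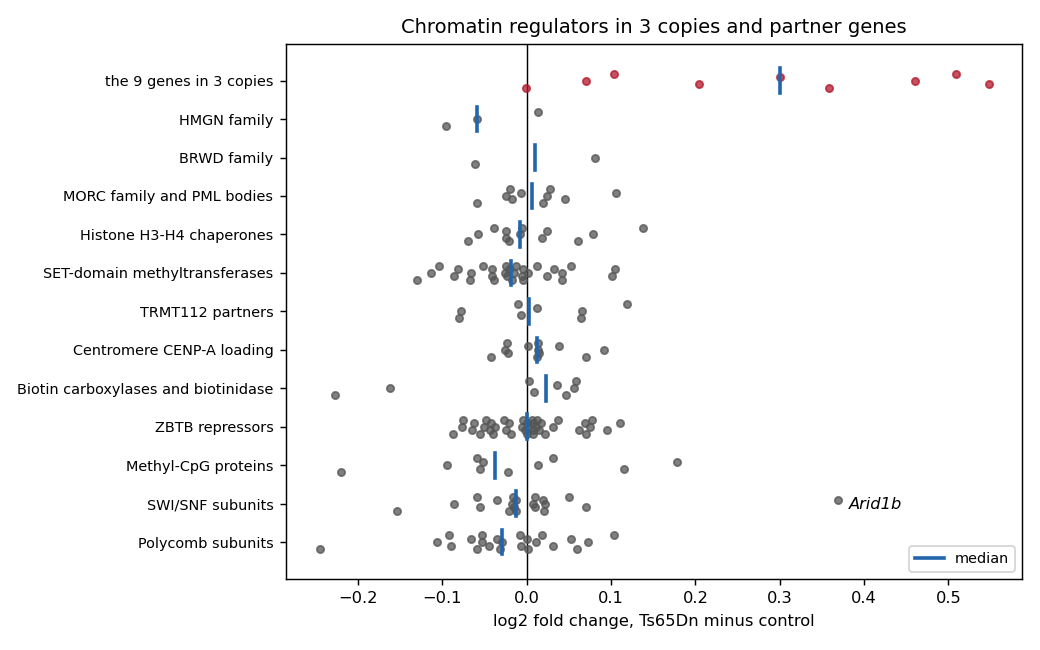
Log2 fold change (Ts65Dn minus control) of the 9 chromatin regulators in 3 copies in the top row and of each measured partner gene in 12 lists below, with blue bars for medians. The 9 genes have a median of 0.30, while the lists of partners centre near 0 and Arid1b stands apart at 0.37.

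The study itself used a test built on the ranks of folds across pairs of arrays. A method of this kind, written anew over 25 pairs, called 7 of the 9 genes higher and 0 lower, which were all but Hmgn1 and Chaf1b. It called 2.89% of all transcript clusters higher and 5.36% in either direction, and 50% of the other Mmu16 genes higher. Morc3, Brwd1 and Hlcs were called in each of 20 alternative limma fits, 10 of which left out 1 mouse.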

How the data were processed

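The authors deposited log2 signals, obtained from the arrays by RMA (background correction, quantile normalization and summary of probes). RMA, limma and mm10 are given, with no version, in the processing notes of the submitters. These steps were not repeated. Of 35556 rows, 23410 with a gene symbol were tested, and a gene was read from its row of highest mean. Probe positions were not used, and coordinates are those of the gene in RefSeq.

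Ts65Dn and control arrays were compared in limma 3.58.1 (lmFit, then eBayes; R 4.3.3), two-sided, genotype as the only term, Benjamini-Hochberg adjustment over all tested rows and a threshold of 0.05. The same fit was tested against a fold of 1.5 with adjustment over 158 genes in 3 copies. Neighbouring genes were compared with exact permutation tests (scipy 1.17.1). Plots were drawn with matplotlib 3.10.9. The fit was tested on simulated data. The rank method (25 pairs, trim of 0.25) was written anew and may differ from the program of the study. The labels call each array a biological replicate, and 5 mice per genotype limit the precision.

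The genes and the lists of partners and markers were chosen with earlier results of these data known. The consecutive pairs and promoter motifs were chosen after values and sequences were seen. The text names all 9 genes, per partner list the genes called and up to 2 with the smallest p, and the 5 most similar profiles. Alternatives were 3 further normalizations, other rows, variance models, array weights, thresholds, a filter on dim rows, the replicate number as a block and leaving out each array.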

Additional observations from a re-analysis of the deposited data

Results flagged for a closer look

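Mis18a in Ts65Dn replicate 4 stood apart from its group, with a log2 signal of 7.38 where the next mouse had 7.04. The gap was 0.781 of the range of the 5 Ts65Dn mice, above the 95% critical value of Dixon's test. Of 18 groups tested (9 genes in 2 genotypes) this was the only 1 to pass, and chance flags about 1 in 20. Without this mouse Mis18a had a fold of 1.21, and its adjusted p against the copy ratio was 0.000515 (limma), beside a fold of 1.28 and an adjusted p of 0.0268 with it. The cause was not tested.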

How the results depend on the processing

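The count of chromatin regulators called higher was 3 under every limma alternative, 3 at an adjusted p under 0.1 and 2 at 0.01. By the rank method it was 7, and 9 of 179 partner genes were called in place of 1. That method sets its limits from the ranks of folds over all transcript clusters and does not use the spread between mice. It called 5.36% of all transcript clusters in either direction. Leaving out 1 mouse gave 3 calls each time, 4 to 6 genes below the copy ratio (6 with all mice) and a median log2 fold change of 0.22 to 0.35. Genes below the copy ratio numbered 5 after cyclic loess and 5 with array weights. With the replicate number as a block, 3 genes were called, 1 partner gene was called and 7 genes lay below the copy ratio, Hlcs being the added one. Same-numbered mice correlated at 0.507, 0.269, 0.325, 0.0313 and 0.459 in their deviations, and 4 of 5 Ts65Dn mice correlated best with the control of their own number, but the labels do not say what the number marks. The 3 scalings moved the median of all rows by at most 0.00447. The filter at a mean log2 signal of 6 left Chaf1b untested. With 5 mice per genotype, Setd4 and Hmgn1 have intervals that hold both no change and rises of up to 1.16-fold and 1.17-fold.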
